A study of Mus musculus with 8 samples.

Results

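Small nucleolar RNA host genes are the subject: 10 genes named Snhg1, Snhg3, Snhg5, Snhg6, Snhg8, Snhg11, Snhg12, Snhg15, Snhg18 and Snhg20. Of these, 9 had values and Snhg3 had none, out of 18835 genes with values among 56941 listed. GENCODE M21 classes 9 of the 10 as long noncoding RNA genes and Snhg11 as protein-coding. The genes were found by symbol, but the set was chosen by someone who had seen how genes of these same libraries differed between the groups. Their differences between the groups are therefore given as a description, without p-values. Counts of how many passed a threshold, under any setting, support nothing.

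The hearts came from 8 mice, all BALB/cAJcl males aged 10 weeks, in which immunization with cardiac myosin had started autoimmune myocarditis (inflamed heart muscle); their RNA was sequenced. The VEGF-C group (4 animals) was given VEGF-C C156S, a mutant of a growth factor for lymphatic vessels that signals through the receptor VEGFR-3, at 1 µg per day by intraperitoneal injection on days 7 to 10 after immunization. The PBS group (4 animals) was given the buffer alone on the same days, and hearts of both groups were taken in week 3. Both groups were immunized, so every difference is between diseased hearts with and without the growth factor. The series is titled after lymphatic endothelial cells, yet each sample is labelled as heart. All 10 cardiomyocyte markers looked at were read, with summed levels of 4102771 to 4631640 normalized counts in VEGF-C hearts and 3106045 to 4097011 in PBS hearts. The 6 lymphatic endothelial markers summed to 15338 to 26804 normalized counts in VEGF-C hearts and 13636 to 20781 in PBS hearts, so the values are those of whole heart tissue. In such tissue, fewer cells of a type and less RNA per cell cannot be told apart.

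Small nucleolar RNAs (snoRNAs) are short nuclear RNAs that guide chemical modification of other RNAs, chiefly ribosomal RNA. Those with C and D boxes guide ribose methylation, those with H and ACA boxes guide pseudouridylation, and the related scaRNAs act in Cajal bodies on the small nuclear RNAs of the spliceosome. Most mammalian snoRNAs are cut from introns of a host transcript. A noncoding host serves mainly as the carrier of its snoRNAs, as far as most are understood. Several such hosts have a terminal oligopyrimidine (TOP) start like that of ribosomal protein genes, and their spliced RNA is often removed by nonsense-mediated decay. Libraries made from polyadenylated RNA read the spliced host, not the snoRNA.

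The GENCODE M21 annotation, which is of build GRCm38, places 23 snoRNAs, 1 scaRNA and 1 microRNA within the 10 hosts. None of these small RNAs had a value: of 153 snoRNA and scaRNA entries listed, 5 had values and 0 of those lie in these hosts. The values below are therefore counts of the host genes, with no separate measure of their small RNAs. Transcripts that keep introns are annotated for some hosts, so reads from those stretches could count towards the host. A C box (TGATGA) with a later D box (CTGA) was found in 10 of the 23 snoRNAs, an ACA in the last 9 bases in 9 and neither pattern in 4; the scaRNA has the ACA. Snhg1 carries 8 snoRNAs, among them Snord22; Snhg12 carries 5 annotated snoRNA entries (Snora16a under 2 identifiers, Snora44, Snora61 and Snord99); Snhg5 carries Snord50a and Snord50b; Snhg3 carries Snora73a and Snora73b; and Snhg11 carries 2. Snhg6 holds Snord87, Snhg8 Snora24, Snhg15 Snora9 and Snhg18 Snord123.

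The cargo of Snhg20, the host with the widest gap between groups that do not overlap, and of Snhg5, Snhg6 and Snhg8 is printed to show the kinds of RNA involved (GENCODE M21, GRCm38, 5′ to 3′; capitals mark the C and D boxes, or the ACA).
Snhg20 scaRNA: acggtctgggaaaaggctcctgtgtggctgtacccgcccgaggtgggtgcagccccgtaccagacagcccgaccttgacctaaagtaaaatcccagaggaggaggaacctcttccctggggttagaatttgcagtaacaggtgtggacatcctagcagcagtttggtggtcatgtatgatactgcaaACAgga
Snord50a: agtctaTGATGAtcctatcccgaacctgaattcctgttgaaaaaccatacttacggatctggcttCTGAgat
Snord50b: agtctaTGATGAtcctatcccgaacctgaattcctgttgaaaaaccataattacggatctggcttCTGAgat
Snord87: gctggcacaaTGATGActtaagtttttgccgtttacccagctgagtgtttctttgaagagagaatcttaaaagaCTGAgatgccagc
Snora24: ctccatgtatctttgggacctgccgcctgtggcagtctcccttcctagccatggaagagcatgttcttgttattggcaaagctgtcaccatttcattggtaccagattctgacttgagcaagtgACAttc
The Snord50 pair of Snhg5 differs at 1 position. Snhg20 also holds the microRNA gene Mir6516, whose mature forms in RefSeq have these sequences, with the seed (bases 2 to 8) in capitals.
mmu-miR-6516-5p: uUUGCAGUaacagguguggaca
mmu-miR-6516-3p: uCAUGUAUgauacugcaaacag
Both mature forms lie inside the scaRNA, at its bases 128 to 149 and 170 to 191, so host, scaRNA and microRNA come from 1 stretch of Snhg20.

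The transcription starts of 9 hosts were in the RefSeq promoter table (GRCm38.p6); Snhg6 was not. The 40 bases around each start (20 before it, 20 from the start on) are aligned here because the host family is known for pyrimidine-rich starts; capitals mark the longest unbroken run of C and T.
Snhg20: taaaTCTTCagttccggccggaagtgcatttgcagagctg
Snhg1: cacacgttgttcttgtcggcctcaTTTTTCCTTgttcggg
Snhg5: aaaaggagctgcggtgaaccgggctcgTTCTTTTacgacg
Snhg18: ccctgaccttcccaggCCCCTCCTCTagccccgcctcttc
Snhg12: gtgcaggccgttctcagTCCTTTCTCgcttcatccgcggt
Snhg8: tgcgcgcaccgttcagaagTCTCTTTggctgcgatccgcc
Snhg15: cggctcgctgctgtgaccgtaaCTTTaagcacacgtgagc
Snhg11: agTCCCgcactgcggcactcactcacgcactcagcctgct
Snhg3: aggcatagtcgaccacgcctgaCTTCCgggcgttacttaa
These windows are chr11:117076763-117076802 (Snhg20, plus strand), chr19:8723467-8723506 (Snhg1, plus), chr9:88522878-88522917 (Snhg5, minus), chr15:32244643-32244682 (Snhg18, minus), chr4:132308658-132308697 (Snhg12, plus), chr3:123508317-123508356 (Snhg8, minus), chr11:6528741-6528780 (Snhg15, minus), chr2:158375693-158375732 (Snhg11, plus) and chr4:132353667-132353706 (Snhg3, minus). The longest run was 10 bases in Snhg18, 9 in Snhg1 and Snhg12, 7 in Snhg5 and Snhg8, 5 in Snhg20 and Snhg3 and 4 in Snhg11 and Snhg15. The run was taken anywhere in the window, so its length alone does not show a TOP start. Its first base lay before the start (minus) at -18 in Snhg11, -16 in Snhg20, -4 in Snhg18, -3 in Snhg12 and -1 in Snhg8. It lay at 3 in Snhg15 and Snhg3, 5 in Snhg1 and 8 in Snhg5, counted from the start on. The median run was 7 bases in the hosts, 7 in 68 promoters of ribosomal protein genes and 5 in all 32851 promoters. A run of at least 8 bases was present in 3 of 9 hosts (33.3%), in 44.1% of the ribosomal protein promoters and in 16% of all promoters. By falling run length, the log2 differences (VEGF-C minus PBS) given below were -0.02 in Snhg18, -0.57 in Snhg1, -0.11 in Snhg12 and -0.53 in Snhg5. They were -0.38 in Snhg8, -2.03 in Snhg20, -1.66 in Snhg11 and -0.42 in Snhg15. Run length and difference were not tested against each other.

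In the full 300-base promoters, searched on both strands, a GC box (GGGCGG) was found in 6 of 9 hosts against 35.7% of all promoters. A TATA box (TATAAA) was found in 4 of 9 against 13.6%, in Snhg1, Snhg3, Snhg5 and Snhg8. CCAAT was found in 3 of 9 against 37.4%, the ETS core CCGGAAG in 2 against 8.86% (Snhg20 and Snhg3), the E-box CACGTG in 1 against 7.15% and the cAMP response element TGACGTCA in 1 against 1.79%, the last 2 in Snhg15. A match describes letters in the window and no binding.

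Values are normalized read counts, that is, reads divided by the authors' factor for each library, read back from the deposited log2 values. All 9 hosts with values averaged lower in VEGF-C hearts than in PBS hearts. On the deposited scale (constant of 4), the log2 differences, VEGF-C minus PBS, ran between -2.03 (Snhg20) and -0.02 (Snhg18), with a median of -0.42. In 5 hosts every VEGF-C library lay below every PBS library, as it did in 11.6% of all genes and in 27.7% of the 1350 long noncoding RNA genes; in the other 4 the groups overlapped. In limma, a linear model fitted to all genes, Snhg20, Snhg1 and Snhg5 (3 of 9) were lower at an adjusted p under 0.05 and 0 hosts were higher; Snhg5 was no longer past it without PBS library 3, VEGF-C library 1 or VEGF-C library 3, and Snhg11 was past it without PBS library 2. Of all genes, 8.61% were called lower and 7.05% higher, and 20.3% of the long noncoding RNA genes were called lower. Since the set was picked with this contrast known, nothing is read from its count.

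**Figure D1:**
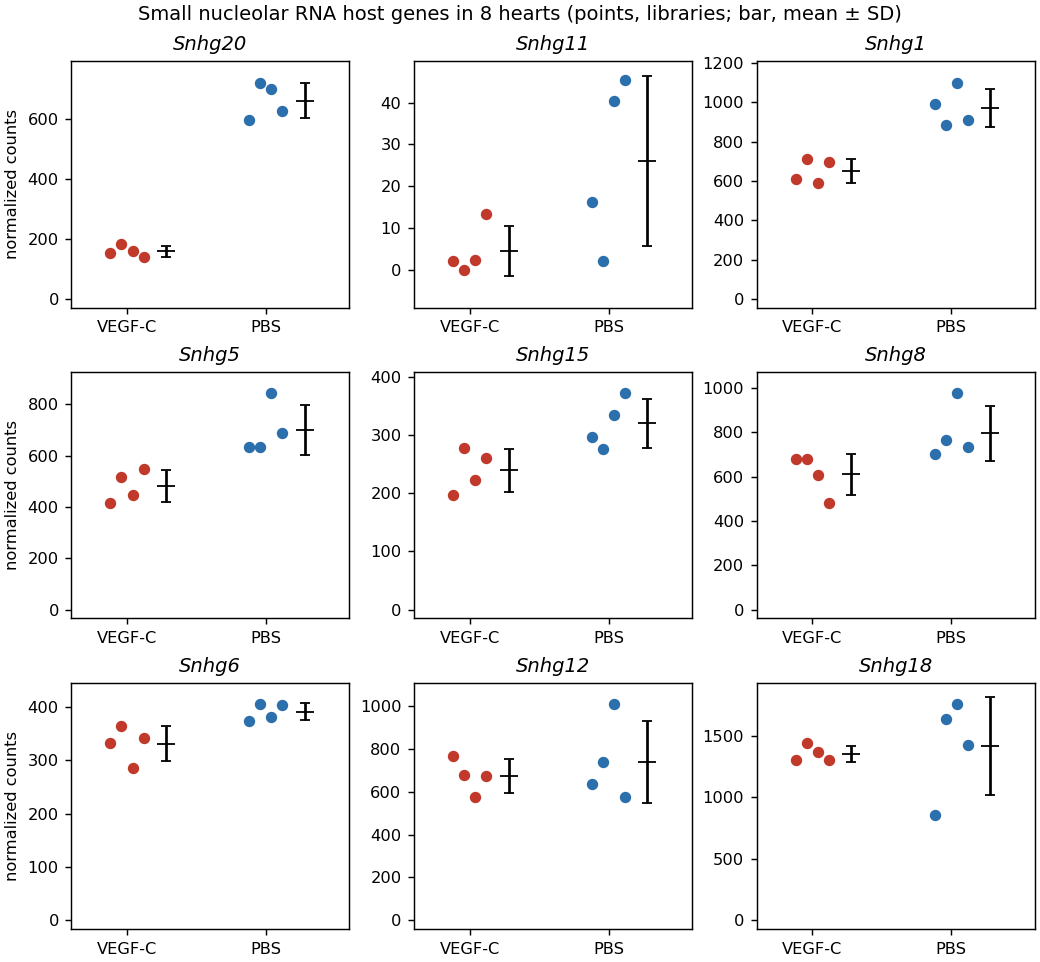
Normalized counts (y axis, each panel with its own linear scale) of the 9 host genes with values; points are libraries, VEGF-C left and PBS right, and the bars give the mean ± SD of 4. The groups stand far apart in Snhg20, with 140.4 to 184 counts in VEGF-C hearts and 599.5 to 723 in PBS hearts, and overlap in Snhg11, Snhg15, Snhg12 and Snhg18.

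The host of a scaRNA and a microRNA, Snhg20, had 153, 184, 160.2 and 140.4 normalized counts in the VEGF-C hearts, against 599.5, 723, 702 and 627 in the PBS hearts. The groups lay far apart, and the values within each group were close together. The means were 159 ± 18.6 in VEGF-C and 663 ± 59 in PBS (SD, n = 4 each), so VEGF-C hearts held 24% of the PBS level. The log2 difference was -2.03 ± 0.12 (SE). The authors' deposited table gives a log2 fold change of -2.06. Between 127 and 144 reads stood behind each VEGF-C value, so counting error is small next to this gap.

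Among the hosts of box C/D snoRNAs, Snhg1 carries the most annotated snoRNAs of the 10 chosen genes. It had 609.7, 712, 589 and 694 normalized counts in VEGF-C hearts, against 992, 883, 1099.9 and 909 in PBS hearts. The highest VEGF-C heart was well below the lowest PBS heart. Its means were 651 ± 60.7 in VEGF-C and 971 ± 97.5 in PBS (SD, n = 4 each), a log2 difference of -0.57 ± 0.10 (SE).

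Snhg5, the host of the Snord50 pair, had 416, 518, 445 and 549 normalized counts in VEGF-C hearts, against 634, 632, 842 and 688 in PBS hearts. The groups did not overlap, and PBS library 3 stood above the other PBS libraries. The log2 difference was -0.53 ± 0.13 (SE), with means of 482 ± 62.3 in VEGF-C and 699 ± 99.1 in PBS (SD, n = 4 each).

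Snhg6, the host of Snord87, differed less. It had 332, 364, 286 and 341 normalized counts in VEGF-C hearts, against 374, 405, 380.1 and 404 in PBS hearts. The groups did not overlap, but the highest VEGF-C heart came close to the lowest PBS heart, and the log2 difference was -0.24 ± 0.11 (SE).

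Snhg18, the host of Snord123, lies beside the axon guidance gene Sema5a. It had 1304, 1437, 1369 and 1299.7 normalized counts in VEGF-C hearts, against 857, 1637, 1755 and 1421 in PBS hearts. The VEGF-C hearts were close together (1352 ± 64.5), while PBS hearts lay both below and above them (1418 ± 398; SD, n = 4 each). The log2 difference was -0.02 ± 0.19 (SE), and its sign turned when single libraries were left out: it was 0.07 without PBS library 2 and 0.10 without PBS library 3.

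Among the hosts of box H/ACA snoRNAs, Snhg8, the host of Snora24, had 679.7, 677, 606 and 482 normalized counts in VEGF-C hearts, against 704, 767, 975 and 733 in PBS hearts. The highest VEGF-C heart was just under the lowest PBS heart, and the log2 difference was -0.38 ± 0.14 (SE). Snhg15, the host of Snora9, had 196, 277, 223 and 259.7 normalized counts in VEGF-C hearts, against 297, 276, 334 and 371 in PBS hearts. Its groups met at 1 pair of hearts, 277 in VEGF-C and 276 in PBS, with a log2 difference of -0.42 ± 0.15 (SE).

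Snhg11, known as a neuron-enriched host, was close to the limit of detection. It had 2, 0, 2 and 12 reads in VEGF-C hearts, against 20, 2, 46 and 56 in PBS hearts. As normalized counts these were 2.12, 0, 2.24 and 13.3 in VEGF-C and 16.3, 1.96, 40.3 and 45.4 in PBS, and the groups overlapped. The log2 difference of -1.66 ± 0.70 (SE) depended on the constant added before the logarithm, at -2.35 with 1 and -0.92 with 16, and on the libraries, with -1.29 to -2.30 when each was left out in turn. The authors' deposited table gives -2.55. With a constant of 1, Snhg11 was thus more negative than Snhg20 (-2.05), and with 4 or 16 less so. The 7 Schwann cell and neuron markers summed to 788 to 1487 normalized counts in VEGF-C hearts and 919 to 2509.5 in PBS hearts, which overlap, and 1 of the 7 was at 0 in a library. Their part in the Snhg11 values was not tested.

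Snhg12 carries both kinds of snoRNA. It had 768, 678, 575 and 675 normalized counts in VEGF-C hearts, against 635, 739.5, 1008 and 575 in PBS hearts. The lowest heart of each group had the same rounded value, and PBS library 3 was far above the rest. The log2 difference was -0.11 ± 0.17 (SE) and became 0.05 without PBS library 3.

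Snhg3, the host of the Snora73 pair, is listed without values; in GENCODE M21 it overlaps the gene Rcc1 on the same strand. The other 9 hosts overlap no gene with values there.

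PBS library 3 was the highest of its group in 5 of the 9 hosts and PBS library 1 the highest in 0. Averaged over the 8 hosts other than the scarcely read Snhg11, PBS library 3 lay 0.22 (log2) above its group mean and PBS library 1 differed from it by -0.18. VEGF-C library 2 was the highest of its group in 5 of 9 hosts and lay 0.14 above its group mean over the same 8. Summed over the 9 hosts, normalized counts were 4459.7, 4847, 4255 and 4455 in VEGF-C hearts, against 5109, 6064, 7136 and 5774 in PBS hearts. The sums did not overlap, at 4504 ± 247 in VEGF-C and 6021 ± 845 in PBS (SD, n = 4 each), and the PBS sums were spread more widely. That separation rested on Snhg20: without its counts, the sum of VEGF-C library 2 lay above that of PBS library 1.

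Levels of different hosts can be compared per length. Divided by the exon length in GENCODE M21, Snhg18 and Snhg8 were highest in both groups: Snhg18 had 910.1 ± 43.4 normalized counts per kb in VEGF-C and 954 ± 268 in PBS, and Snhg8 had 716 ± 109 in VEGF-C and 932 ± 144 in PBS (SD, n = 4 each). In PBS hearts Snhg5 (404 ± 57.3), Snhg6 (341 ± 13.8), Snhg1 (327 ± 32.9), Snhg12 (308 ± 79.7), Snhg20 (237 ± 21.1) and Snhg15 (235 ± 30.9) followed, and Snhg11 (3.05 ± 2.4) was last. The PBS ranges of Snhg8 and Snhg5, of Snhg5 and Snhg6, and of Snhg15 and Snhg11 did not overlap; all other neighbours in that order overlapped. In VEGF-C hearts Snhg20, at 57 ± 6.65 per kb, stood below Snhg15, at 176 ± 26.7, and their ranges did not overlap, whereas in PBS hearts they did. The order depends on which transcripts are made: with the median transcript length in place of all exons, Snhg1 was at rank 1 and Snhg20 at rank 3 in PBS hearts. Among all genes with values, ranked on counts not divided by length, the hosts lay between percentile 0.775 (Snhg11) and percentile 62.5 (Snhg18), with a median of 46.2.

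**Figure D2:**
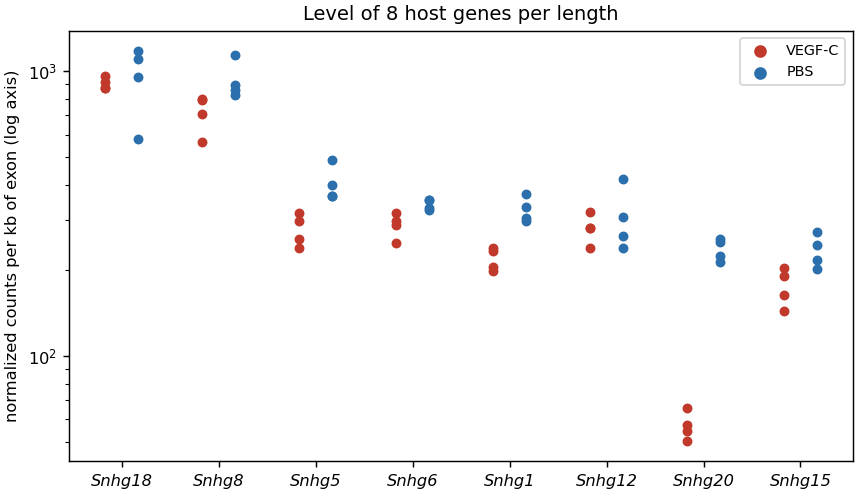
Normalized counts per kb of exon (log axis) of 8 host genes, ordered by their PBS mean; points are libraries, VEGF-C left and PBS right within each gene, and Snhg11 is left out because 1 library has 0. Snhg20 is the host whose VEGF-C libraries lie far below the rest, at 50.2 to 66 per kb against 214 to 259 in PBS.

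The 9 other noncoding snoRNA hosts with values (5 more Snhg genes, Gas5, Zfas1, Dancr and Epb41l4aos) were not among the chosen genes and were tested with limma over all genes. They were seen in the same libraries, and earlier results of these data were known when the list was written. Of the 9, 5 were lower, 0 higher and 4 did not pass, beside 8.61% of all genes called lower; 6 had an unadjusted p under 0.05. All 9 log2 differences were negative, with a median of -0.46, against a median of -0.38 and 80% negative in the 1350 long noncoding RNA genes and a median of 0.03 with 45.7% negative in the 14579 protein-coding genes.

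Dancr, a noncoding RNA studied for holding back cell differentiation, had 60.4, 77.9, 75.1 and 95 normalized counts in VEGF-C hearts, against 204, 172, 292 and 189.6 in PBS hearts. It fell without overlap, with a log2 difference of -1.42 ± 0.21 (SE, limma adjusted p = 0.00243). Snhg14, the long imprinted host that runs antisense to Ube3a, had 63.6, 58.5, 47.1 and 84 in VEGF-C hearts, against 236, 97.8, 151 and 177 in PBS hearts. It fell as well (-1.29 ± 0.27, limma adjusted p = 0.013).

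Snhg17 had little spread within either group, with 534, 542, 548 and 524 normalized counts in VEGF-C hearts, against 763, 791, 768 and 737 in PBS hearts (log2 difference -0.51 ± 0.08, limma adjusted p = 0.00375). Snhg16 was lower by -0.74 ± 0.17 (limma adjusted p = 0.0166). Gas5, the host best known for its TOP start and its removal by nonsense-mediated decay, had 3684, 3620.4, 3391 and 3655 in VEGF-C hearts, against 4104, 5061, 5475 and 4245 in PBS hearts. It fell by a small margin (-0.39 ± 0.10, limma adjusted p = 0.0251), and the call was lost without PBS library 2 or 3 or without any 1 of the 4 VEGF-C libraries, with adjusted p between 0.0129 and 0.0714 over the 8 fits that each left out 1 library. Snhg10 (-0.46), Snhg4 (-0.39), Epb41l4aos (-0.38) and Zfas1 (-0.28) did not pass, with limma adjusted p of 0.287, 0.0895, 0.317 and 0.271.

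Snhg14, Snhg16, Gas5 and Zfas1 each overlap a gene on the opposite strand (Ube3a, St6galnac2, Zbtb37 and Znfx1), and Snhg14 overlaps a predicted gene on its own strand. The libraries were stranded, but how the counting treated strand is not stated in the labels, so reads of these 4 may include those of their partners.

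**Figure D3:**
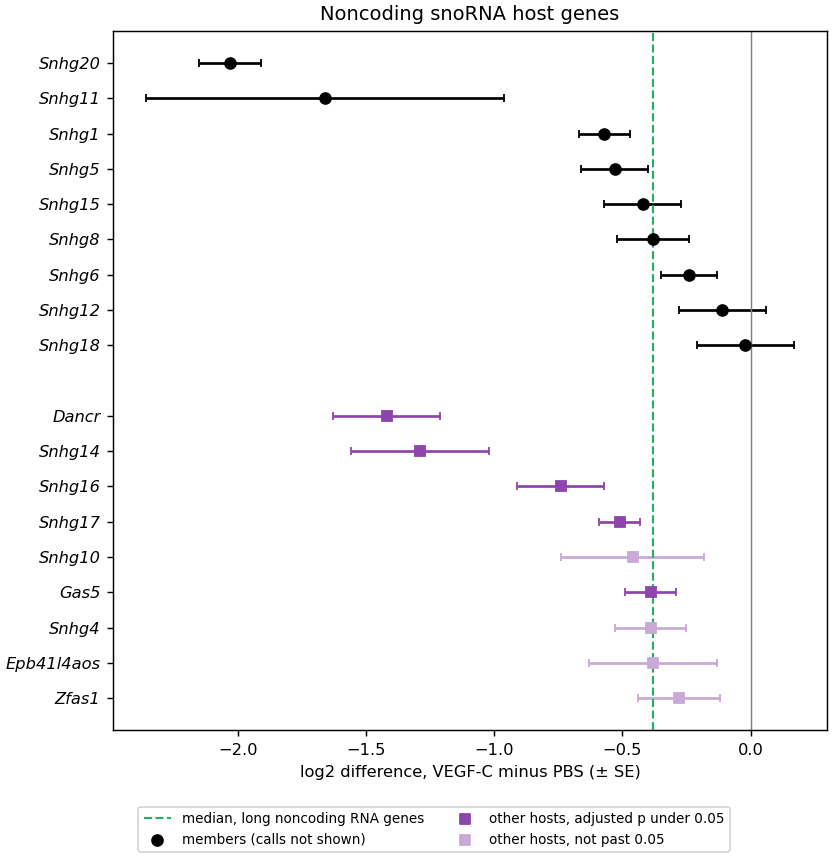
Log2 difference, VEGF-C minus PBS (x axis), of the 9 chosen hosts (circles, calls not shown) and the 9 other noncoding snoRNA hosts (squares, dark where the limma adjusted p is under 0.05); bars are ± SE and the dashed line is the median of long noncoding RNA genes at -0.38. All 18 points lie below 0, between -2.03 for Snhg20 and -0.02 for Snhg18.

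Genes that make and use snoRNAs were counted next, from lists written with earlier results known. Proteins that bind the snoRNAs showed no call: 0 of 4 core proteins of box C/D particles passed in limma (2 at an unadjusted p under 0.05; median log2 difference -0.04) and 0 of 4 of box H/ACA particles (0 at an unadjusted p under 0.05; median -0.01). Nop56, a C/D core protein, had -0.26 ± 0.10 (adjusted p = 0.0886) and Dkc1, the pseudouridine synthase of H/ACA particles, 0.08 ± 0.08 (adjusted p = 0.548). Of 12 assembly factors, 1 was higher and 0 lower: Naf1, an H/ACA assembly factor, rose by 0.36 ± 0.10 (adjusted p = 0.0421), a call lost in 7 of the 8 fits that left out 1 library (all but the fit without PBS library 2) and with library totals or upper-quartile factors as the scaling.

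The 20 genes of RNA polymerase I and rRNA processing had a median log2 difference of 0.07, with 1 higher and 0 lower in limma. That gene was Rrn3, the initiation factor of RNA polymerase I (0.27 ± 0.07, adjusted p = 0.0302). Its call was lost without PBS library 2, 3 or 4 or VEGF-C library 1, 3 or 4, and with library totals or upper-quartile factors.

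Nonsense-mediated decay removes the spliced RNA of many hosts. Of its 16 factors, 1 was lower, 1 higher and 14 did not pass in limma, with a median log2 difference of 0.02. Upf3b, which links exon junctions to the decay machinery, had 653, 533, 696 and 599 normalized counts in VEGF-C hearts, against 1061, 949.8, 1124 and 926 in PBS hearts. It fell without overlap (log2 difference -0.71 ± 0.11, adjusted p = 0.00325). Eif4a3, the helicase of the exon junction complex, rose by 0.30 ± 0.06 (adjusted p = 0.0127; adjusted p = 0.221 with library totals).

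Of 12 regulators of TOP mRNA translation, 2 were higher, 2 lower and 8 did not pass in limma, with a median log2 difference of 0.19. Pabpc1, the cytoplasmic poly(A)-binding protein, had 19278, 19699.7, 18601 and 18738 normalized counts in VEGF-C hearts, against 12896, 12982, 13123 and 12157 in PBS hearts. It rose without overlap (0.58 ± 0.06, adjusted p = 0.00064), while Tial1 and Tia1, which hold TOP mRNAs back under stress, fell (-0.52 ± 0.08, adjusted p = 0.00246, and -0.44 ± 0.08, adjusted p = 0.00778). Larp4b, a binding partner of Pabpc1, rose by 0.22 ± 0.06 (adjusted p = 0.0474), a call lost in all 8 fits that left out 1 library and in 4 other settings.

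Protein-coding hosts, which carry snoRNAs in the introns of genes for proteins, had a median log2 difference of 0.11 over 39 genes, with 2 higher, 1 lower and 36 not past the threshold in limma. Taf1d, a subunit of the RNA polymerase I selectivity factor, had 635, 691, 719 and 764 normalized counts in VEGF-C hearts, against 1159, 913, 1036 and 1020.3 in PBS hearts, and fell without overlap (-0.55 ± 0.10, adjusted p = 0.00644). Eif3a, a translation initiation subunit, rose by 0.37 ± 0.07 (adjusted p = 0.0097) and Hspa8, a chaperone, by 0.53 ± 0.11 (adjusted p = 0.0127); with library totals their adjusted p became 0.0989 and 0.0554.

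The 79 cytosolic ribosomal protein genes, the reference set of TOP mRNAs, had a median log2 difference of 0.01, with 0 past the threshold in limma and 2 at an unadjusted p under 0.05. Rpl35 had -0.32 ± 0.12 (adjusted p = 0.0923) and Rps2 0.25 ± 0.11 (adjusted p = 0.14). Genes that share a TOP start with several hosts sat around 0 as a list, beside a median of 0.03 in all protein-coding genes. The noncoding host lists had medians of -0.42 and -0.46, beside -0.38 in all long noncoding RNA genes. The difference between these lists was not tested.

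**Figure D4:**
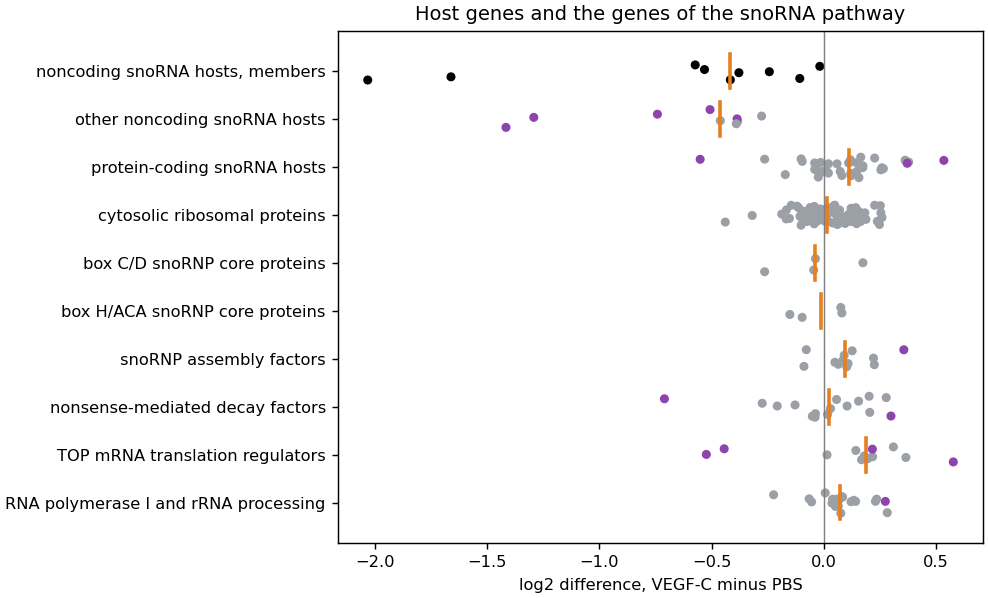
Log2 difference, VEGF-C minus PBS (x axis), of every gene with values in 10 lists; orange bars are list medians, purple points passed a limma adjusted p of 0.05, grey points did not, and black points are the chosen hosts, whose calls are not shown. Medians of the noncoding host lists are -0.42 and -0.46, and those of the other 8 lists lie between -0.04 and 0.19.

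The nearest genes with values on each side of the 9 hosts in GENCODE M21 (18 in all) lie 105 to 812450 bases away (GRCm38). In limma 2 of them were lower, 1 was higher and 15 did not pass. Of all genes, 8.61% were called lower and 7.05% higher. Whether a difference was shared along the chromosome was not tested. At Snhg1, the amino acid transporter subunit Slc3a2 starts 105 bases away (GRCm38) in the opposite direction and had a log2 difference of -0.17 ± 0.09 (adjusted p = 0.23), beside -0.57 ± 0.10 for Snhg1. Wdr74, after the end of Snhg1, had -0.10 ± 0.09 (adjusted p = 0.476).

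Sema5a starts 147 bases (GRCm38) from Snhg18, also in the opposite direction. It had 602, 538, 598 and 486 normalized counts in VEGF-C hearts, against 538, 1088, 935 and 861 in PBS hearts. PBS library 1 was the lowest PBS library for both genes of this pair, and the log2 difference of Sema5a was -0.58 ± 0.19 (limma adjusted p = 0.0664). Without PBS library 1 it was -0.78 and passed (limma adjusted p = 0.00388); with library totals it also passed (-0.77, limma adjusted p = 0.0236), and over the other 7 fits that left out 1 library the adjusted p was 0.1 to 0.149.

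Beside Snhg20, a predicted gene ends 15992 bases from its end and had -0.43 ± 0.28 (adjusted p = 0.325), and Mgat5b, a glycosyltransferase gene 89059 bases before its start, had 0.50 ± 0.27 (adjusted p = 0.235). The neighbours of Snhg5, Syncrip (0.15 ± 0.10, adjusted p = 0.318) and Zfp949 (-0.22 ± 0.10, adjusted p = 0.157), lie 38475 and 25090 bases away and did not pass. Snhg8 and Snhg12 each have a gene ending within 1 kb of their own end, Prss12 at 954 bases (-0.95 ± 0.59, adjusted p = 0.293) and Trnau1ap at 738 bases (-0.17 ± 0.09, adjusted p = 0.231).

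The neighbours that passed belong to Snhg15 and Snhg11. Myo1g, a myosin of blood cells 4625 bases after Snhg15, had 1365, 928, 1110.3 and 1202 normalized counts in VEGF-C hearts, against 2900.0, 1938, 2031 and 1772 in PBS hearts, and fell (-0.89 ± 0.16, adjusted p = 0.00644). Ccm2, on the other side of Snhg15, had 0.01 ± 0.07 (adjusted p = 0.961). Snhg11 lies head to head with Snhg17, which fell, at 14057 bases; Ralgapb, on its other side, rose by 0.31 ± 0.08 (adjusted p = 0.0304), a call lost without PBS library 2 or 3 or VEGF-C library 3 or 4 and with library totals.

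**Figure D5:**
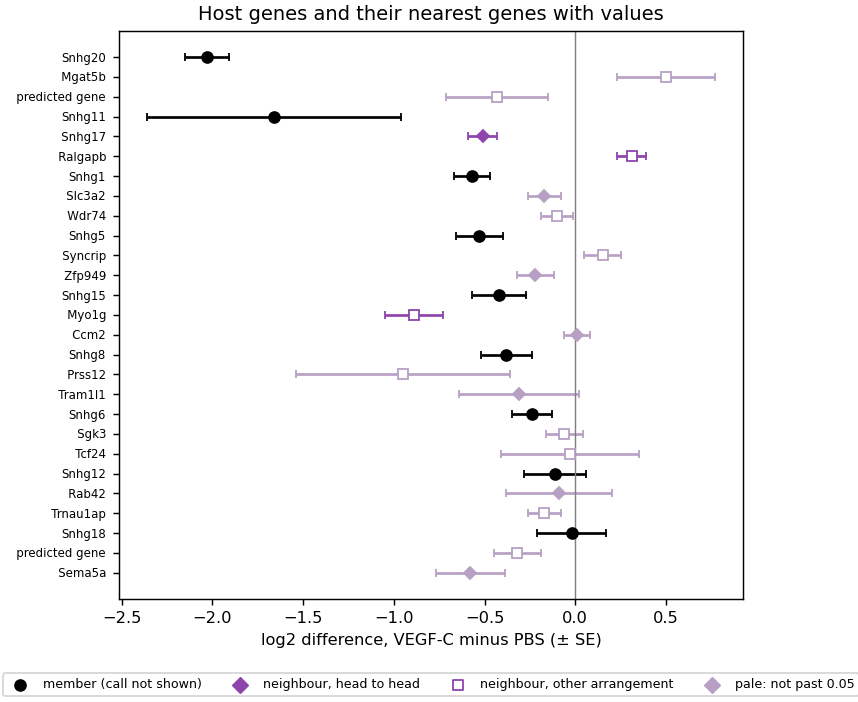
Log2 difference, VEGF-C minus PBS (x axis, ± SE), of each host (black circles, calls not shown) and, under it, its nearest genes with values; diamonds mark genes that start head to head with the host, and dark purple marks a limma adjusted p under 0.05. Of the 18 neighbours, Snhg17, Ralgapb and Myo1g passed.

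Read depth was 65.2, 53.7, 61.6 and 62.5 M reads in VEGF-C libraries 1 to 4, against 76.0, 61.7, 66.4 and 76.8 M in PBS libraries 1 to 4. In a principal component analysis of all genes the first component (37% of the variance) parted the groups and the second (19.7%) set PBS library 1 apart. Lists of nuclear RNAs and of B cell markers moved with the hosts. The 5 nuclear-retained RNAs with values, Neat1 and Malat1 among them, were all lower in limma, with a median log2 difference of -2.20 and sums of 25886 to 28856 normalized counts in VEGF-C hearts against 92337 to 114821 in PBS hearts. Of 6 B cell markers, 4 were lower and 0 higher, none was at 0 in a library, their median log2 difference was -1.50, and their sums were 706 to 1847 in VEGF-C hearts against 2688 to 4542 in PBS hearts. The part of either in the host values was not tested. The sums of 6 macrophage markers (37863 to 46151 in VEGF-C, 40255 to 47320 in PBS) and of 7 T cell markers (2745 to 3761 in VEGF-C, 2688 to 3904 in PBS) overlapped, with 0 of each list past the threshold in limma and 1 of each at an unadjusted p under 0.05. In the same fit 0 of 10 cardiomyocyte markers passed (3 at an unadjusted p under 0.05, median log2 difference 0.28), and 1 of the 10 had a negative difference. The cardiomyocyte sums did not overlap, at 4102771 to 4631640 in VEGF-C hearts against 3106045 to 4097011 in PBS hearts. Their part in the host values was not tested. Of 8 fibroblast markers 1 was higher, of 6 lymphatic endothelial markers 1 was higher and of 6 blood endothelial markers 1 was lower.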

How the data were processed

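Heart RNA of 8 mice was sequenced as stranded polyadenylated libraries, per the labels' protocols. The submitters' processing notes name build GRCm39, DESeq2 1.38.3, featureCounts and Subread 2.0.1, STAR 2.7.10a, and Trim Galore 0.6.10; strand setting and annotation release are not stated there. The deposited values are on a log2 scale, with 4 added to each library-scaled count before the logarithm: with 1 scaling factor for a library, 100% of values came out as whole reads within 0.01. The authors removed genes without values by a rule that no label states, and their deposited adjusted p-value was not used to call genes.

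limma 3.58.1 (R 4.3.3, mean-variance trend) was fitted to the deposited log2 values of all 18835 genes with treatment as the 1 factor, after it was tested on simulated data. Adjusted p-values are two-sided Benjamini-Hochberg values over all genes, with a threshold of 0.05. Differences are VEGF-C minus PBS and understate changes of genes with few reads. Library numbers are those of the table's columns, which tie to no animal; each library was counted as 1 animal. Animal numbers do not repeat between groups, so no pairing was used. The members and lists were chosen with earlier results of these data known. Named genes are all hosts, their neighbours and up to 4 genes per list past the threshold by smallest p-value (up to 2 where none passed), except predicted genes; 1 gene that met this rule is not reported here. Of the genes, 18472 (98.1%) matched GENCODE M21. Alternatives were other scalings, added constants, a filter at a mean of 10 normalized counts, limma-voom, a robust variance fit and leaving out each library.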

Additional observations from a re-analysis of the deposited data

Results flagged for a closer look

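Within-group gaps were looked at in 104 groups of 4 libraries over 52 genes, of which about 1 in 20 would stand out by chance; 2 did and no host gene was among them. Naf1 had 428 normalized counts in PBS library 2, above the next PBS library at 377 and the lowest at 369.6. Wdr74, the gene after the end of Snhg1, had 1145 in VEGF-C library 3, above the next VEGF-C library at 1032 and the lowest at 1011.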

How the results depend on the processing

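Each host's log2 difference was recomputed under 15 alternative settings, 135 values in all: 126 moved by less than the spread between replicates, 4 moved by more and 5 changed sign. The sign changed in Snhg12, at 0.05 without PBS library 3, and in Snhg18, at 0.07, 0.10 and 0.00 without PBS library 2, 3 or 4 and 0.00 without VEGF-C library 4; leaving out 1 library at a time gave -0.22 to 0.05 in Snhg12 and -0.24 to 0.10 in Snhg18. The all-gene median shifted by -0.19 with library totals as the scaling and by -0.05 with upper-quartile factors; with library totals the hosts' median was -0.61, against -0.42, and 6 hosts were past the threshold in place of 3. Leaving out 1 library at a time gave 2 to 4 hosts past it. Snhg5 was lost without PBS library 3 or VEGF-C library 1 or 3, and Snhg11 was gained without PBS library 2. The hosts were picked with this contrast known, so nothing is read from these host counts under any setting. Library totals also gave 243 genes higher and 3572 lower, against 1328 and 1621, with 8 neighbours past the threshold in place of 3, and in the partner lists 1 gene higher in place of 7 and 18 lower in place of 9. Upper-quartile factors gave 797 genes higher, and 4 in the partner lists. Of named genes not past the threshold, Nop56, Rpl35, Sema5a, Slc3a2, Snhg4, Trnau1ap, Wdr74, Zfp949 and a predicted gene passed as lower with library totals, Nop56 also with upper-quartile factors and Sema5a also without PBS library 1. Leaving out 1 library at a time gave 1684 to 2906 genes past the threshold, against 2949; the fewest were without VEGF-C library 3, and without VEGF-C library 1 there were 1956. Of these, 591 to 1268 were higher, and the partner lists had 4 to 7 genes higher. The cause of these shifts was not tested. Depth bears most on Snhg11 among the hosts, with at most 56 reads in a library. No paired analysis was possible because animal numbers do not repeat between the groups.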

Other observations

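The share of each host's span that is exonic in some GENCODE M21 transcript was noticed after the values were seen. It was 94.8% in Snhg20, 100% in Snhg1, Snhg8 and Snhg12, 92% in Snhg5 and 81.1% in Snhg11, so transcripts that keep the introns are annotated for these hosts and reads from a retained intron would count towards them. It was 53.1% in Snhg6, 42.9% in Snhg15 and 36.3% in Snhg18. The log2 differences (VEGF-C minus PBS) of the first 6 hosts lay between -2.03 and -0.11, and those of the other 3 between -0.42 and -0.02, ranges that overlap. No test was made.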
